A study of Sus scrofa with 6 samples.

Results

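Muscle fibres hold their contractile units in register at the Z-disc, a plate of crosslinked alpha-actinin in which the actin filaments of neighbouring sarcomeres meet and titin, the elastic giant of the sarcomere, is anchored. Several Z-disc proteins also carry signals: they leave the sarcomere for the nucleus or change in amount when a muscle is stretched, loaded or damaged. The genes described here code for Z-disc or stretch-responsive proteins. They are the stretch-responsive CSRP3, ANKRD2 and ANKRD1, the calsarcins MYOZ1, MYOZ2 and MYOZ3, and the scaffold and anchor proteins TCAP, LDB3, PDLIM1 and FLNC. They were taken by name from a table of 17627 genes listed by Ensembl identifier. Of the 10 genes, 7 had a row under their symbol. MYOZ2, MYOZ3 and LDB3 were not matched to a row and were not analysed here. All 7 matched genes passed the filter of at least 1 FPKM in 3 or more libraries, and none was listed at 0 in any library.

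The tissue was longissimus dorsi, a long back muscle, sequenced in 3 libraries from the Wannanhua pig, a local Chinese breed, and 3 from the Yorkshire pig, a lean commercial breed, with an age label of 5 months for all 6, although the design text of the series speaks of piglets. No treatment is labelled. The labels number the libraries 1 to 3 within each breed but do not say that each came from a separate animal. A p-value here measures the spread among these 6 libraries alone, and some of that spread may be technical. FPKM, the unit used throughout, counts fragments per kilobase of transcript, scaled to the mapped fragments of the library, so levels of different genes can be set side by side.

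The deposited counts are scaled and were not taken as reads, so the depth behind a value is unknown. Their totals were 16373268 to 19250503 in Wannanhua libraries and 17353859 to 19251335 in Yorkshire libraries. No library duplicated another of its breed: at most 0.127% of the tested genes had equal FPKM in a pair, and the median absolute log2 difference of a pair was 0.189 or more. Of 12 skeletal muscle genes looked at for the tissue label, 8 were matched. They cannot tell longissimus dorsi from another skeletal muscle. The 8 summed to between 11900 and 13100 FPKM in Wannanhua and between 14500 and 15200 FPKM in Yorkshire. The sums hide opposite differences: 3 of the 8 were higher and 4 lower in Wannanhua without overlap between the breeds. Of all tested genes 20.3% were higher and 9.63% lower in this way. Across 11791 genes tested with limma, a linear model fit with variances moderated across genes, 360 passed a Benjamini-Hochberg adjusted p of 0.05, 208 of them higher and 152 lower in Wannanhua. Quantile normalization turned that split to 138 higher and 200 lower. The median log2 fold change of all tested genes was 0.12 as deposited and 0.00 after quantile normalization.

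Among the stretch-responsive genes, CSRP3 and ANKRD2 were higher in Wannanhua muscle, by 12.6-fold and 6.97-fold on group means, while ANKRD1, the close relative of ANKRD2, varied from library to library within each breed and overlapped between them. TCAP, PDLIM1 and FLNC had positive and MYOZ1 a negative log2 fold change, but none of the 4 passed the test. Thus 2 of the 7 members passed, both higher. Across all genes tested 3.05% passed in either direction, 1.76% as higher and 1.29% as lower in Wannanhua. The median log2 fold change was 1.11 over the 7 members and 0.12 over all genes. In 3 of the 7 members, CSRP3, ANKRD2 and PDLIM1, every Wannanhua library lay above every Yorkshire library, and in none did every one lie below. Of all tested genes 29.9% did not overlap, 20.3% with Wannanhua above and 9.63% with Wannanhua below. In a bulk sample, fewer fibres of one type and less RNA per fibre cannot be told apart.

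**Figure D1:**
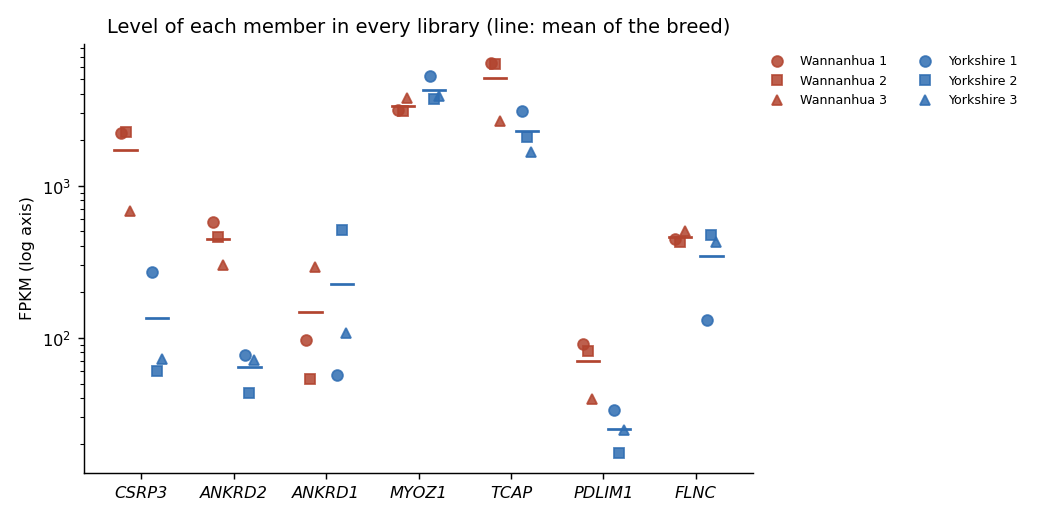
FPKM of the 7 members on a log axis in each library, with Wannanhua in red left of Yorkshire in blue, and a line at the mean of each breed. CSRP3, ANKRD2 and PDLIM1 show no overlap between the breeds, ANKRD1 is highest in Yorkshire 2 at 509 FPKM, and FLNC is lowest in Yorkshire 1 at 131 FPKM.

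CSRP3 (ENSSSCG00000013354) encodes muscle LIM protein, which binds alpha-actinin and TCAP at the Z-disc, enters the nucleus as a partner of muscle transcription factors, and is most abundant in heart and slow fibres. It stood at 2204, 2239 and 680 FPKM in Wannanhua 1, 2 and 3, and at 272, 60.4 and 72.3 FPKM in Yorkshire 1, 2 and 3. The lowest Wannanhua library was still 2.50-fold above the highest Yorkshire library, but each breed held one library apart from its other two: Wannanhua 3 was 3.24-fold below the next Wannanhua library, and Yorkshire 1 was 3.77-fold above the next Yorkshire library. By FPKM it ranked between 43 and 137 among all genes in Wannanhua libraries, and between 338 and 1163 in Yorkshire libraries. The fitted log2 fold change came to 3.81 ± 0.67 (SE; 95% interval 2.24 to 5.37; adjusted p = 0.0397 in limma), with all 3 Wannanhua libraries higher.

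The CSRP3 call rests on few libraries. Without Wannanhua 1, Wannanhua 2, Yorkshire 2 or Yorkshire 3 the limma adjusted p was 0.145, 0.138, 0.0991 and 0.139, and the log2 fold change lay between 3.40 and 4.48 over all 6 omissions. With all 6 libraries but no filter on low values the limma adjusted p of CSRP3 was 0.0687. Its 2 relatives CSRP1 and CSRP2, LIM proteins of smooth muscle and other cells, were scarce: CSRP1 averaged 17.3 ± 6.98 FPKM in Wannanhua and 10.5 ± 2.32 FPKM in Yorkshire (SD, n = 3 each), and CSRP2 averaged 3.87 ± 1.91 and 3.65 ± 0.90 FPKM in the same order. Neither passed the test (limma adjusted p = 0.334 for CSRP1 and 0.979 for CSRP2).

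ANKRD2 (ENSSSCG00000010522) encodes an ankyrin-repeat protein that binds the N2A segment of titin in the I-band, moves to the nucleus after injury, and in mouse muscle increases upon stretch. It stood at 579, 458 and 299 FPKM in Wannanhua 1, 2 and 3, and at 77.5, 43.3 and 71.1 FPKM in Yorkshire 1, 2 and 3. Libraries of a breed differed by less than 2-fold here: the highest was 1.94-fold above the lowest in Wannanhua and 1.79-fold in Yorkshire, and the gap between Wannanhua 3 and Yorkshire 1 was 3.87-fold. For ANKRD2 the log2 fold change came to 2.77 ± 0.32 (SE; 95% interval 2.03 to 3.51; adjusted p = 0.0115 in limma), with no overlap between the breeds. Leaving out a library moved the log2 value to between 2.52 and 3.03. The adjusted p became 0.0532 without Wannanhua 1, 0.0814 without Wannanhua 2 and 0.0690 without Yorkshire 3.

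ANKRD1 (ENSSSCG00000010461) encodes the cardiac ankyrin-repeat protein of the same family, scarce in resting skeletal muscle and known in rodents to be induced by stretch, injury and loss of innervation. It stood at 96.4, 53.5 and 291 FPKM in Wannanhua 1, 2 and 3, and at 57.1, 509 and 107 FPKM in Yorkshire 1, 2 and 3. The breeds overlapped, although Wannanhua 2 lay below every Yorkshire library and Yorkshire 2 above every Wannanhua library, and single libraries stood out in both: Yorkshire 2 was 4.77-fold above the next Yorkshire library and Wannanhua 3 was 3.02-fold above the next Wannanhua library. ANKRD1 was the member with the largest spread in both breeds relative to its mean, at a coefficient of variation of 86.1% in Wannanhua and 110% in Yorkshire. The ANKRD1 log2 fold change came to -0.35 ± 0.87 (SE; adjusted p = 0.846 in limma), and the 95% interval of -2.38 to 1.68 spans changes of over 2-fold either way. The sign turned to 0.20 without Wannanhua 2 and 0.55 without Yorkshire 2.

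Other genes were also highest in Yorkshire 2 among the Yorkshire libraries, as were 41.5% of all tested genes. CCN2, a matrix-associated growth factor that like ANKRD1 is a known target of the stretch-sensitive YAP and TEAD factors, stood at 18.1, 28.0 and 29.4 FPKM in Wannanhua 1, 2 and 3, and at 8.68, 39.2 and 10.1 FPKM in Yorkshire 1, 2 and 3. Its relative CCN1, a target of the same factors, stood at 9.29, 19.2 and 16.4 FPKM in Wannanhua 1, 2 and 3, and at 4.01, 12.5 and 7.87 FPKM in Yorkshire 1, 2 and 3, so that its Yorkshire 2 value lay below Wannanhua 2 and 3. The 9 matched fibroblast markers summed to between 311 and 386 FPKM in Wannanhua libraries, and to 329, 811 and 554 FPKM in Yorkshire 1, 2 and 3. CCN2 and the fibroblast markers were highest of all 6 libraries in Yorkshire 2. In Wannanhua 3, the other library rich in ANKRD1, CCN2 was close to its level in Wannanhua 2. The fibroblast sum was lowest there, at 311 FPKM, but close to the 314 FPKM of Wannanhua 2. By mean log2 level the same markers were lowest in Yorkshire 1, at 3.46 against 3.77 in Wannanhua 3. Their part in the ANKRD1 values was not tested.

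The ankyrin-repeat pair can be compared inside a library, where depth cancels. ANKRD2 over ANKRD1 was 6.01, 8.57 and 1.03 in Wannanhua 1, 2 and 3, against 1.36, 0.0851 and 0.666 in Yorkshire 1, 2 and 3. Wannanhua 1 and 2 thus held several times more ANKRD2 than ANKRD1 transcript per length, Yorkshire 2 held the reverse, and Wannanhua 3 and Yorkshire 1 overlapped near equality. On the log2 scale the ratio averaged 1.90 ± 1.63 in Wannanhua and -1.22 ± 2.06 in Yorkshire (SD, n = 3 each), a difference of 3.12. An exact two-sided permutation test gave p = 0.20, where 3 against 3 libraries cannot go below 0.10. ANKRD23, the other ankyrin-repeat protein of this titin-bound family, stood higher than both, at 2310, 1908 and 2595 FPKM in Wannanhua 1, 2 and 3, and at 1310, 892 and 659 FPKM in Yorkshire 1, 2 and 3. Its log2 fold change of 1.30 ± 0.29 did not pass (SE; limma adjusted p = 0.0611), although the breeds did not overlap.

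MYOZ1 (ENSSSCG00000010304) encodes calsarcin-2, which ties calcineurin to alpha-actinin at the Z-disc and is the calsarcin of fast fibres. It was the steadiest abundant member, at 3129, 3087 and 3759 FPKM in Wannanhua 1, 2 and 3, and at 5243, 3704 and 3873 FPKM in Yorkshire 1, 2 and 3. Wannanhua 3 lay above Yorkshire 2, so the breeds overlapped, and all 6 libraries lay between 3087 and 5243 FPKM. The MYOZ1 log2 fold change came to -0.35 ± 0.24 (SE; 95% interval -0.90 to 0.20; adjusted p = 0.426 in limma). That interval excludes a change of 2-fold in either direction on this scale.

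TCAP (ENSSSCG00000017500) encodes telethonin, the small protein that clasps the ends of 2 titin molecules at the Z-disc. It was the most abundant member in Wannanhua by mean, although MYOZ1 was higher in Wannanhua 3, and stood at 6344, 6310 and 2643 FPKM in Wannanhua 1, 2 and 3, and at 3070, 2091 and 1651 FPKM in Yorkshire 1, 2 and 3. Wannanhua 3 fell below Yorkshire 1, so the breeds overlapped, and the other 2 Wannanhua libraries lay above all of Yorkshire. The TCAP log2 fold change came to 1.11 ± 0.41 (SE; 95% interval 0.15 to 2.06; adjusted p = 0.176 in limma), and it passed without Wannanhua 3, at 1.53 with an adjusted p of 0.0438.

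PDLIM1 (ENSSSCG00000010493) encodes a PDZ and LIM domain protein that binds alpha-actinin. It was the scarcest member by the mean of each breed, although ANKRD1 was lower in Wannanhua 2, and stood at 90.5, 82.2 and 39.5 FPKM in Wannanhua 1, 2 and 3, and at 33.5, 17.4 and 24.6 FPKM in Yorkshire 1, 2 and 3. The breeds did not overlap, but Wannanhua 3 lay only 1.18-fold above Yorkshire 1. For PDLIM1 the log2 fold change came to 1.42 ± 0.36 (SE; 95% interval 0.57 to 2.27; adjusted p = 0.0825 in limma), and it passed without Wannanhua 3, at 1.78 with an adjusted p of 0.0247.

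FLNC (ENSSSCG00000016578) encodes filamin C, the muscle filamin that crosslinks actin and gathers at damaged Z-discs. It stood at 447, 423 and 503 FPKM in Wannanhua 1, 2 and 3, and at 131, 470 and 425 FPKM in Yorkshire 1, 2 and 3. The other 5 libraries lay between 423 and 503 FPKM, and Yorkshire 1 was 3.24-fold below the next Yorkshire library. The FLNC log2 fold change came to 0.62 ± 0.46 (SE; adjusted p = 0.470 in limma), and it was 0.03 without Yorkshire 1. NEB, the nebulin that spans the thin filament from the Z-disc, was also lowest in Yorkshire 1, at 617 FPKM against 884 and 925 in Yorkshire 2 and 3. Of all tested genes 50.9% were lowest in Yorkshire 1 among the Yorkshire libraries, while TCAP, MYOZ1 and the desmin gene DES were highest there. Yorkshire 1 had the fewest genes at 1 FPKM or more: Wannanhua libraries had 11491 to 11979, and Yorkshire 1, 2 and 3 had 10726, 11796 and 11539. Their part in the FLNC value was not tested.

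**Figure D2:**
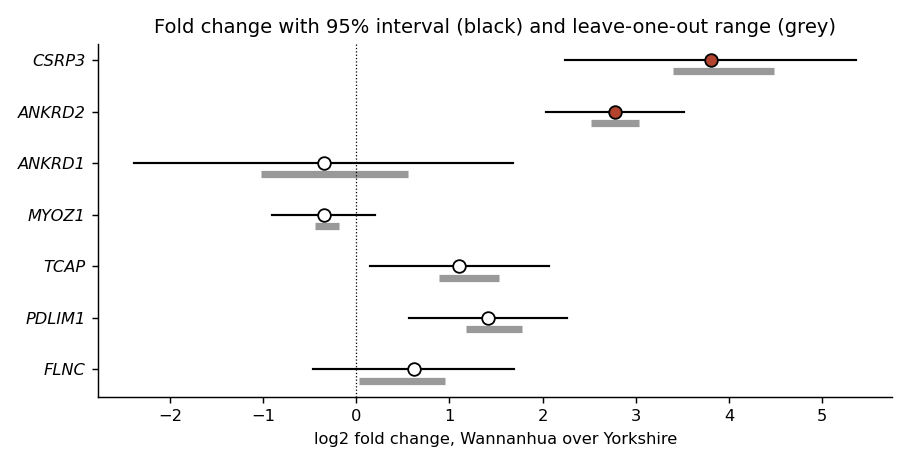
Log2 fold change of each member, Wannanhua over Yorkshire, with limma's 95% interval in black and the range over 6 fits that each leave out 1 library in grey; filled points passed the adjusted threshold. CSRP3 and ANKRD2 stand apart at 3.81 and 2.77, and the ANKRD1 range crosses 0.

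Per length of transcript, the order of the members differed between the breeds. In Wannanhua it ran from TCAP and MYOZ1, whose libraries overlapped, through CSRP3, then FLNC and ANKRD2, which overlapped, to ANKRD1 and PDLIM1, which overlapped. In Yorkshire it ran from MYOZ1 through TCAP, both apart from their neighbours, then FLNC, ANKRD1, CSRP3 and ANKRD2, each of which overlapped the next, to PDLIM1, whose libraries lay below all others. By mean CSRP3 thus took place 3 of 7 in Wannanhua and place 5 in Yorkshire.

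Inside a breed the members differed in which library was highest or lowest, a description that does not use the difference between the breeds. In Wannanhua, library 3 was the lowest for 4 of the 7 members, CSRP3, ANKRD2, TCAP and PDLIM1, and the highest for the other 3, ANKRD1, MYOZ1 and FLNC. Of all tested genes 31.1% were lowest and 41.5% highest in that library among the Wannanhua libraries. In Yorkshire, library 1 was the highest for 5 members, CSRP3, ANKRD2, TCAP, PDLIM1 and MYOZ1, and the lowest for ANKRD1 and FLNC, where 30.9% of all tested genes were highest and 50.9% lowest in it among the Yorkshire libraries. The lowest Yorkshire library was 2 for CSRP3, ANKRD2, PDLIM1 and MYOZ1 but 3 for TCAP.

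Genes of the slow-fibre sarcomere, by their mean, moved like some of the members between libraries, and unlike ANKRD1 and FLNC. The mean log2 level of 6 such genes (TNNI1, TNNT1, TNNC1, MYL3, MYH7B and MYBPC1) was 11.56, 11.68 and 9.91 in Wannanhua 1, 2 and 3, against 10.18, 8.97 and 9.59 in Yorkshire 1, 2 and 3. Like CSRP3 and TCAP, it was lowest in library 3 of Wannanhua and highest in library 1 of Yorkshire. Its Wannanhua 3 value lay below Yorkshire 1, as for TCAP but not for CSRP3. The mean log2 level of 7 fast-fibre genes was 9.80, 9.66 and 11.36 in Wannanhua 1, 2 and 3, against 11.88, 11.89 and 12.08 in Yorkshire 1, 2 and 3. Of the slow-fibre list 1 of 6 tested genes passed, MYBPC1, the slow form of myosin-binding protein C, which was higher in Wannanhua (2943 ± 1185 against 591 ± 94.7 FPKM, SD, n = 3 each; limma adjusted p = 0.0295). Of the fast-fibre list 1 of 7 passed, CASQ1, the calcium store protein, which was lower (1552 ± 310 against 3646 ± 447 FPKM, SD, n = 3 each; limma adjusted p = 0.0435). The medians were 1.40 for the slow and -1.64 for the fast list. Neither call held without Wannanhua 1, Wannanhua 2, Yorkshire 2, Yorkshire 3 or the filter on low values. The CASQ1 call was also lost without Yorkshire 1, after quantile normalization and with the replicate block.

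Each member was also set against the slow-fibre genes of its own library, a comparison chosen after the data were seen. Within a library the same amount is taken from every member. The order of the members by breed difference was therefore fixed by the log2 fold changes above and is no further evidence. On the log2 scale and relative to the mean of the slow-fibre genes, CSRP3 stood at -0.45, -0.55 and -0.50 in Wannanhua 1, 2 and 3, and at -2.08, -3.03 and -3.39 in Yorkshire 1, 2 and 3. Wannanhua 3, which stood apart in the level of CSRP3, did not stand apart on this scale, but Yorkshire 1 was still the highest Yorkshire library. The breeds did not overlap. ANKRD2 stood at -2.38, -2.84 and -1.68 relative to the slow-fibre genes in Wannanhua 1, 2 and 3, and at -3.88, -3.50 and -3.42 in Yorkshire 1, 2 and 3, again without overlap. Wannanhua 3, the lowest of its breed in the level of ANKRD2, was the highest of its breed on this scale.

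The differences between the breeds in these relative levels were 2.33 for CSRP3 and 1.30 for ANKRD2, each with p = 0.10 in an exact two-sided permutation test, the smallest that 3 against 3 can give (0.23 adjusted over the 7 members). TCAP stood at 1.07, 0.94 and 1.46 relative to the slow-fibre genes in Wannanhua 1, 2 and 3, and at 1.41, 2.06 and 1.10 in Yorkshire 1, 2 and 3. The breeds overlapped for TCAP, with a difference of -0.37 (exact permutation p = 0.40). PDLIM1 stood at -5.05, -5.31 and -4.57 in Wannanhua 1, 2 and 3, and at -5.07, -4.77 and -4.91 in Yorkshire 1, 2 and 3, a difference of -0.06 (exact permutation p = 0.90). Among the others ANKRD1 and FLNC overlapped. MYOZ1 differed by -1.82 without overlap (exact permutation p = 0.10), although its level before the subtraction overlapped between the breeds. Without MYBPC1 in the list the differences were 2.49 for CSRP3 and 1.45 for ANKRD2, both still without overlap. For MYOZ1 the difference was then -1.67 and the exact permutation p 0.20.

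**Figure D3:**
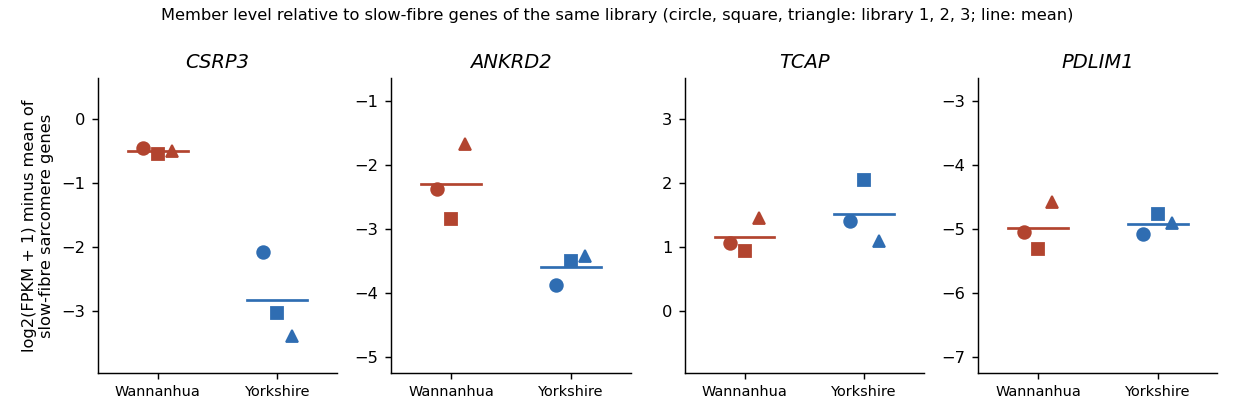
Level of 4 members on the log2(FPKM + 1) scale minus the mean of 6 slow-fibre sarcomere genes in the same library, with Wannanhua left of Yorkshire and a line at each mean; all panels span the same range of log2 units. CSRP3 averages -0.50 in Wannanhua and -2.84 in Yorkshire, and the 2 breeds overlap for TCAP and PDLIM1.

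The genes with the profiles most like 3 of the members were sought among 7242 other tested genes with a symbol. Likeness was the root mean square difference over the 6 libraries of log2(FPKM + 1), each gene centred on its own mean. Nearest to CSRP3 were TECRL, a protein of the endoplasmic reticulum known from the heart, at 0.66, ANKRD2 at 0.81, CLIP4 at 0.86, HSPB6, a small heat shock protein of muscle, at 0.87, and NUDT7, a peroxisomal hydrolase of coenzyme A, at 0.89. ANKRD2 itself was nearest to MYBPC1 and to CPT1B, which admits fatty acids to mitochondria, both at 0.38, then to GPAM, the first enzyme of glycerolipid synthesis, at 0.42, CLIP4 at 0.44 and PFKL, the liver form of phosphofructokinase, at 0.45. CSRP3 was 80th in that order, at 0.81.

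PDLIM1 had closer neighbours. NNT, the transhydrogenase of the inner mitochondrial membrane, differed from it by 0.07 and PTGR2, a prostaglandin reductase, by 0.08. ACADL and ACAA2, both at 0.19, and ACADVL, at 0.21, are enzymes of fatty acid oxidation. NNT stood at 216, 195 and 101 FPKM in Wannanhua 1, 2 and 3, and at 89.0, 48.8 and 64.7 FPKM in Yorkshire 1, 2 and 3, about the same proportions between libraries as PDLIM1. TCAP was 22nd in the order from PDLIM1, at 0.29. All 3 orders include the difference between the breeds, so genes changed by breed come near for that reason alone.

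Other genes of the Z-disc and its surroundings had log2 fold changes between -1.23 and 2.01, all below those of CSRP3 and ANKRD2. Of 35 listed, 26 had a row and 24 were tested, of which 2 passed as higher and 1 as lower, with a median of 0.42 and 19 of 24 values positive, where 62.6% of all tested genes had a positive value. ACTN2, the alpha-actinin that both CSRP3 and MYOZ1 bind, stood at 2811, 2534 and 1348 FPKM in Wannanhua 1, 2 and 3, and at 473, 536 and 575 FPKM in Yorkshire 1, 2 and 3. All Wannanhua libraries lay above all Yorkshire libraries (2.01 ± 0.31 on the log2 scale, SE; adjusted p = 0.0312 in limma). PDLIM5, a relative of PDLIM1 at the Z-disc, was higher as well, at 96.9, 137 and 83.2 FPKM in Wannanhua 1, 2 and 3, and at 39.6, 27.6 and 34.1 FPKM in Yorkshire 1, 2 and 3 (adjusted p = 0.0295 in limma). CAPZB, a subunit of the protein that caps actin filaments in the Z-disc, was lower, at 87.5 ± 9.81 FPKM in Wannanhua and 207 ± 17.9 FPKM in Yorkshire (SD, n = 3 each; limma adjusted p = 0.0270).

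Intermediate filament and further Z-disc genes did not pass. DES, the desmin that links neighbouring Z-discs, stood at 4917 ± 706 FPKM in Wannanhua and 2501 ± 389 FPKM in Yorkshire, and MYOT, the Z-disc protein myotilin, at 1926 ± 301 and 963 ± 188 FPKM (SD, n = 3 each; limma adjusted p = 0.0706 for both). In both the breeds did not overlap. NEB averaged 1018 ± 72.4 FPKM in Wannanhua and 809 ± 167 FPKM in Yorkshire (SD, n = 3 each; limma adjusted p = 0.400). ACTN3, the fast-fibre alpha-actinin, and TTN, titin, were not matched to a row. The count of 3 in the Z-disc list was 0 without Wannanhua 1, Wannanhua 2, Yorkshire 2 or Yorkshire 3, 5 without Wannanhua 3 and 1 without the filter on low values. ACTN2 also lost its call without Yorkshire 1.

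Among titin partners, LIM proteins and muscle ubiquitin ligases, 1 of 12 tested genes passed, with a median of 0.37. It was LMCD1, a LIM protein known in mouse heart to promote calcineurin signalling, at 367, 302 and 238 FPKM in Wannanhua 1, 2 and 3, and at 70.4, 79.6 and 77.6 FPKM in Yorkshire 1, 2 and 3. The Yorkshire libraries were nearly level and all Wannanhua libraries lay above them (1.96 ± 0.21 on the log2 scale, SE; adjusted p = 0.00914 in limma). The LMCD1 call was lost without Wannanhua 2 or Yorkshire 3. FHL1 was not matched to a row.

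Calcineurin, the phosphatase that calsarcins hold at the Z-disc, and its NFAT and MEF2 effectors had 14 tested genes with a median of 0.03, which turned to -0.06 after quantile normalization. None passed in limma (1 at an unadjusted p under 0.05, as were 22.1% of all tested genes). PPP3CA, the alpha catalytic subunit, averaged 26.7 ± 3.81 FPKM in Wannanhua and 33.9 ± 13.9 FPKM in Yorkshire (SD, n = 3 each; limma adjusted p = 0.709). RCAN1, an inhibitor of calcineurin that NFAT induces, averaged 44.3 ± 22.4 and 27.7 ± 5.00 FPKM (SD, n = 3 each; limma adjusted p = 0.383). RCAN2, a related inhibitor singled out once the values were known, held 95.4, 60.3 and 18.6 FPKM in Wannanhua 1, 2 and 3, and 8.72, 7.30 and 8.12 FPKM in Yorkshire 1, 2 and 3. It missed the threshold (limma adjusted p = 0.0558) and passed in 2 of 13 alternatives, with the filter at 5 FPKM and without Wannanhua 3. Its order of the Wannanhua libraries matched that of ANKRD2, but so did the orders of TCAP, PDLIM1, ACTN2, LMCD1 and MYBPC1.

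A list around YAP and TEAD, nuclear factors that respond to stretch, had 18 tested genes with a median of 0.22, of which 2 passed. It mixed TEAD factors and targets with genes that restrain them, such as LATS1, SAV1 and VGLL4, and with SRF and MRTFA. YAP1, the gene of YAP itself, was not among the tested genes. The median therefore gives no direction for YAP and TEAD activity. TEAD3, a TEAD factor, was higher at 13.7 ± 2.36 FPKM in Wannanhua and 6.83 ± 0.43 FPKM in Yorkshire (SD, n = 3 each; limma adjusted p = 0.0488). MRTFA, the actin-sensing partner of serum response factor, was lower at 2.88 ± 0.27 and 6.11 ± 0.67 FPKM (SD, n = 3 each; limma adjusted p = 0.0434). Neither call held when any 1 of the 6 libraries was left out. The targets CCN1 and CCN2 did not pass (limma adjusted p = 0.255 and 0.497).

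**Figure D4:**
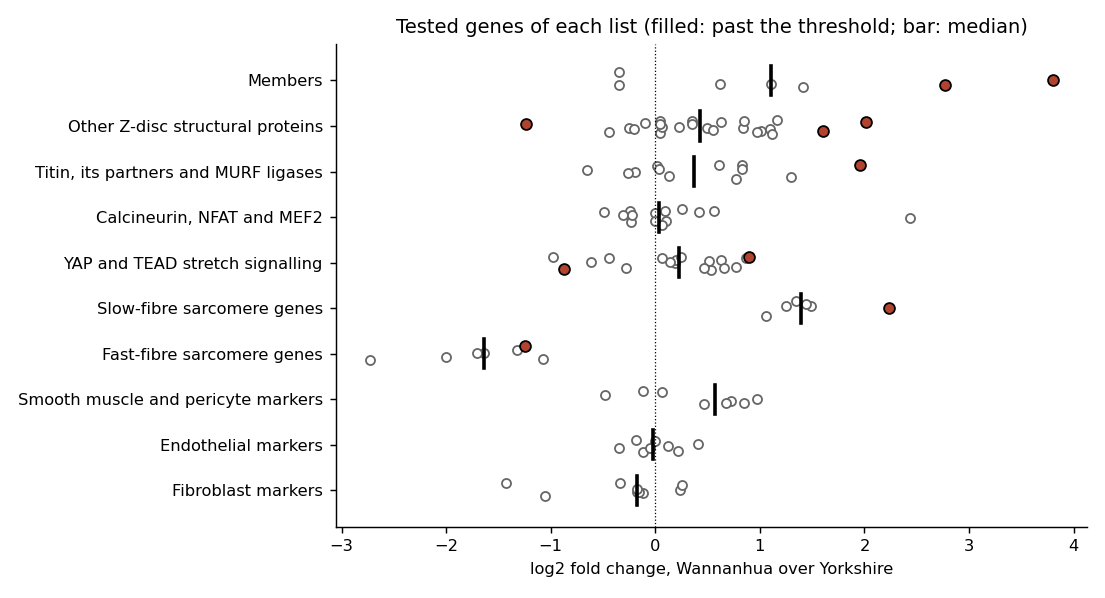
Log2 fold change, Wannanhua over Yorkshire, of every tested gene in the members and in 9 other lists, with a bar at each median and filled points past the adjusted threshold. The members, the slow-fibre list at 1.40 and the fast-fibre list at -1.64 lie farthest from 0 by their medians.

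Several members are also made outside muscle fibres, PDLIM1 in vessel and connective tissue cells and ANKRD1 in fibroblasts and vessel walls, so markers of those cells were counted. No marker passed in limma among 8 smooth muscle, 8 endothelial, 9 fibroblast, 6 adipocyte and 7 macrophage genes tested (2, 0, 2, 2 and 0 at an unadjusted p under 0.05). Of all tested genes 22.1% had an unadjusted limma p under 0.05. Their medians were 0.57, -0.03, -0.17, 0.64 and 0.23. Endothelial markers summed to between 65.8 and 95.7 FPKM in Wannanhua and between 68.0 and 79.6 FPKM in Yorkshire, 8 of 12 matched, with none at 0. Smooth muscle markers include DES, which fibres also make. Apart from it, ACTA2, smooth muscle actin, stood at 25.9, 70.1 and 101 FPKM in Wannanhua 1, 2 and 3, and at 36.1, 28.0 and 43.5 FPKM in Yorkshire 1, 2 and 3. SMTN, smoothelin, stood at 13.7, 21.0 and 12.5 FPKM in Wannanhua 1, 2 and 3, and at 7.59, 7.53 and 9.15 FPKM in Yorkshire 1, 2 and 3 (limma adjusted p = 0.0881). Like PDLIM1, SMTN was higher in every Wannanhua library than in any Yorkshire library and lowest in Wannanhua 3 within its breed. ACTA2 overlapped and was highest there, and the same held for MYH11, TAGLN and CNN1. PDGFRB and MCAM also overlapped, and CNN1 and PDGFRB had negative log2 fold changes (-0.48 and -0.12). Their part in the PDLIM1 values was not tested. The fibroblast median turned to 0.13 without Yorkshire 2, and 2 of the 9 fibroblast markers passed without Yorkshire 1. With the filter at 5 FPKM 1 adipocyte marker passed. After quantile normalization, or without trend and robust settings, 1 smooth muscle marker passed. The endothelial median turned to 0.12 with the filter at 5 FPKM. It was 0.07 without Wannanhua 1, 0.08 without Wannanhua 3 and 0.01 without Yorkshire 1.

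The 6 tested markers of denervation and regeneration had a median of -0.85, and none passed in limma. At an unadjusted limma p under 0.05 stood 3 of the 6, and 22.1% of all tested genes. Without Wannanhua 3, 1 of the 6 markers passed. CHRNA1, the acetylcholine receptor subunit that spreads along denervated fibres, stood at 2.75, 3.54 and 2.78 FPKM in Wannanhua 1, 2 and 3, and at 0.29, 2.88 and 1.18 FPKM in Yorkshire 1, 2 and 3. It is named after its values were seen and was the 1 marker with a positive log2 fold change, at 0.85. The other 5 were negative: MYOD1, MYH3 and SLN stood at -1.59, -1.55 and -1.39, and NCAM1 and MYMK at -0.31 and -0.06. Like ANKRD1, CHRNA1 was highest among the Yorkshire libraries in Yorkshire 2, as were 41.5% of all tested genes. Unlike ANKRD1, it was not raised in Wannanhua 3 over Wannanhua 2.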

How the data were processed

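The authors deposited 1 table with an FPKM value and a scaled count for each library. Per the labels' protocols, poly-A RNA was made into paired-end libraries with a kit that leaves strand unmarked, so reads of a gene and an antisense partner cannot be told apart. Tools in the submitters' processing notes are CASAVA 1.7 and TopHat2 2.0.6, and the build is Sscrofa10.2. The counter, the annotation and the handling of reads with several matches are not stated there. Per the file headers the second set of values is a count, but the deposited values are not whole and were handled as a signal that scales reads by 1 factor per library. A count test needs whole reads, that is, low values of which 95% or more are whole multiples of 1 step, within 0.1 of a step. With the step sought from the smallest value, 2 of the 6 libraries met this (Yorkshire 1 and 3) and the other 4 did not. A step sought from the commonest value near 1 gave 99.8% or more in all 6, as 1 to 3 values per library lie below it, but this search was chosen after the values were seen. The values were therefore not used as reads, and edgeR and DESeq2 were not used, although planned as alternatives. Symbols came from a table that matched 58.9% of identifiers.

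Genes were compared by limma 3.58.1 in R 4.3.3 on log2(FPKM + 1), with breed as the only term and trend and robust settings. On this scale low genes change less than on a ratio scale. The 7 genes that reached a scaled count of 10000 somewhere and stood at 0 elsewhere were left out, since such a 0 can be a failed estimate. Alternatives were other variance settings, other scaling, filters and pseudocounts, a replicate block and each library left out.

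The members, the lists of other genes and the tests were chosen with earlier results of these data known. All members are named, and of each list up to 6 called genes plus a set of Z-disc, titin and calcineurin genes. Other genes are said to be named after their values were seen, or are given as values beside a member. Same-numbered libraries of the breeds did not deviate together, so the numbers were not taken to pair them. Of the 4 ratios planned within families, 1 had both members. No sequence is printed, as no sequence file was used here.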

Additional observations from a re-analysis of the deposited data

How the results depend on the processing

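CSRP3 kept its sign in all 13 alternatives and its call in 8, and ANKRD2 in all 13 and in 10, with adjusted p from 0.0192 to 0.145 and from 0.00549 to 0.0814. The count of 2 members past the threshold was 1 (ANKRD2) without a filter on low values, and 0 to 4 with 1 library left out: 0 without Wannanhua 1, Wannanhua 2 or Yorkshire 3, 1 (ANKRD2) without Yorkshire 2, and 4 without Wannanhua 3. The count of 360 over all genes was 69 without the filter and 205 with the replicate block, and 11 to 504 with 1 library left out. The cause was not tested. With the replicate block 2 members passed, CSRP3 and ANKRD2, and no member's call changed; correlations of the deviations of same-numbered libraries were 0.10, -0.01 and 0.11. ANKRD1 turned positive without Wannanhua 2 (0.20) or Yorkshire 2 (0.55), over a range of -1.02 to 0.55. The relative level of PDLIM1 against slow-fibre genes, at -0.06, was 0.10 without MYBPC1 and -0.26 to 0.11 with 1 library left out. The ratio of ANKRD2 to ANKRD1 kept its sign in all 8 alternatives, and 3 of the 4 planned ratios were not run, as a member had no row. The planned count tests, and the ratio from reads, were not run, since whole reads were found from the smallest value in 2 of 6 libraries. The depth is unknown, so counting error was not estimated. With 3 libraries a breed, a missed threshold does not show equal levels, and the intervals bound the change.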
